A study of Mus musculus with 3 samples.

Results

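The cytosolic ribosomal protein genes encode the proteins that, with ribosomal RNA, build the small and the large subunit of the ribosome that translates messenger RNA in the cytosol. Members were the gene rows whose symbol is Rpl or Rps followed by a digit, together with Rplp0, Rplp1, Rplp2 and Rpsa. Pseudogene symbols with -ps, the Rps6k kinases and names of gene models were left out. The rule found 86 members among 32285 gene rows, of which 52 start with Rpl (proteins of the large subunit and their paralogs) and 33 are Rps genes or Rpsa (the small subunit). The remaining member is Rps19bp1, a binding partner of the Rps19 protein and no ribosomal protein itself, which only its symbol brought in. The rule uses symbols and no measured value, although it was written with earlier results of these data known.

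Ribosomal protein messages are among the most abundant in dividing cells, and each ribosome holds its proteins in fixed proportions. Their messages carry a run of pyrimidines at the 5′ end, the terminal oligopyrimidine (TOP) element, through which mTOR signalling controls their translation together. Loss of a single copy of any of several of these genes causes Diamond-Blackfan anemia in people, in which red cell production fails.

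The libraries hold lineage-negative (Lin-), KIT-positive progenitors sorted from mouse liver at postnatal day 0 and read by CITE-seq, a droplet assay that counts messenger RNA and antibody tags in each cell. The Skida1-deleted library comes from mice that carry the MLL::ENL fusion and lack Skida1 (SKI/DACH domain containing 1). The MLL-ENL library comes from mice with the fusion and Skida1 intact, and the Control library from mice labelled only as Control, whose alleles the labels do not spell out. MLL::ENL is a leukemia fusion of the chromatin regulator MLL (Kmt2a) with ENL (Mllt1). All 3 libraries share tissue, age, sort and assay. The sources used here do not give the promoter or Cre that drives the fusion and the deletion, the strain, or how many animals made up a library and their sex.

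Each group was 1 library without a replicate, so groups are compared by value alone, with no p-value. The 95% intervals below cover counting error only, and genotype cannot be told apart from animal, sex, preparation or sequencing of a library. The libraries held 10543 cell barcodes (Skida1-deleted), 11910 (MLL-ENL) and 6091 (Control), of which 9344, 10807 and 5394 were kept in that order. Median depth was 17247 unique molecular identifiers (UMIs) per kept cell in the Skida1-deleted library, 13918 in the MLL-ENL library and 28032 in the Control library. Skida1 itself had 92 UMIs or 0.505 counts per 1000000 gene UMIs (CPM) in the Skida1-deleted library, 902 UMIs or 4.82 CPM in the MLL-ENL library and 36 UMIs or 0.229 CPM in the Control library. A 3′ tag may lie outside the deleted part, so these counts do not check the deletion by themselves. Xist stood at 2.11, 1041 and 642 CPM in the Skida1-deleted, MLL-ENL and Control libraries, and the Y-linked Ddx3y at 57.2, 0 and 0 CPM, so male cells were found in the Skida1-deleted library alone. Between 37 and 53 barcodes of a library were also listed in another library.

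Short stretches around the annotated start are shown for 6 members, picked from those with a run of pyrimidines over that start. They cover 30 bases before the start and 20 bases from it, on the gene's own strand. The letters come from the RefSeq promoter table of GRCm38.p6, and capitals mark the run of C and T that covers the start. Each of these runs begins before the annotated start, and that part lies outside the annotated message. The examples are 3 members with small proteins and 3 with large proteins, since size orders the results below. Rpl35 lies at chr2:39005112-39005161 (minus strand), Rps27 at chr3:90213629-90213678 (minus strand) and Rplp2 at chr7:141447621-141447670 (plus strand). Rpl15 lies at chr14:18270967-18271016 (minus strand), Rps6 at chr4:86857348-86857397 (minus strand) and Rpl14 at chr9:120571487-120571536 (plus strand).
Rpl35: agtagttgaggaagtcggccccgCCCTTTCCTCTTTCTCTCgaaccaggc
Rps27: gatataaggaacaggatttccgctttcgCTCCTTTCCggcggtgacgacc
Rplp2: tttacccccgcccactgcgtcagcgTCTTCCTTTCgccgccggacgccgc
Rpl15: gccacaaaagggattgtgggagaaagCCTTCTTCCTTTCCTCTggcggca
Rps6: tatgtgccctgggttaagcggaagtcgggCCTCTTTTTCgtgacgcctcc
Rpl14: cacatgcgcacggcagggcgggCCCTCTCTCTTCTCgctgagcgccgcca
A run of at least 5 pyrimidines over the annotated start was found in 21 of the 66 members with a window in the table (31.8%), against 10.8% of 20267 genes. CCGGAAG, a core letter string of ETS-family motifs, stood on either strand in 300-base windows of 26 of the 66 members (39.4%), against 12.0% of all genes. In each search a gene was counted if any of its windows matched. CTCTTT on the sense strand was present in 23 (34.8%), against 13.4% of all genes, and ATGGCGGC, a core string of the YY1 motif, on either strand in 4 (6.06%), against 3.17%. CTCTTT can itself lie within a pyrimidine run. A match describes letters in a window and says nothing about binding or use of the start.

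The 86 members together took 33.5% of gene UMIs in the Skida1-deleted library, 32.8% in the MLL-ENL library and 28.2% in the Control library, over all kept cells. In the cells with markers of hematopoietic stem and progenitor cells (HSPC-like), the share was 32.9% in the Skida1-deleted library, 31.9% in the MLL-ENL library and 27.2% in the Control library. Their exact binomial 95% intervals ran from 32.85% to 32.88% (Skida1-deleted), from 31.88% to 31.92% (MLL-ENL) and from 27.16% to 27.20% (Control). The MLL-ENL share was 1.17-fold that of Control and the Skida1-deleted share 1.03-fold that of MLL-ENL, and both stood above the Control value. Granulocyte progenitor-like cells had the widest gap, with 35.0%, 33.2% and 25.7% in the Skida1-deleted, MLL-ENL and Control libraries. Erythroid-like cells had 33.0%, 32.3% and 28.7%, megakaryocyte-like cells 33.9%, 32.6% and 27.5%, and basophil-mast-like cells 34.6%, 33.4% and 28.6%, in that order of libraries. The order of the libraries was the same in each of these 5 classes. B-lineage-like cells, of which there were 100, 93 and 45, held the lowest shares of the 6 classes with at least 20 cells in each library, at 24.5% (Skida1-deleted, exact binomial 95% interval 24.3% to 24.6%), 23.5% (MLL-ENL, 23.3% to 23.6%) and 21.8% (Control, 21.7% to 21.9%).

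**Figure D1:**
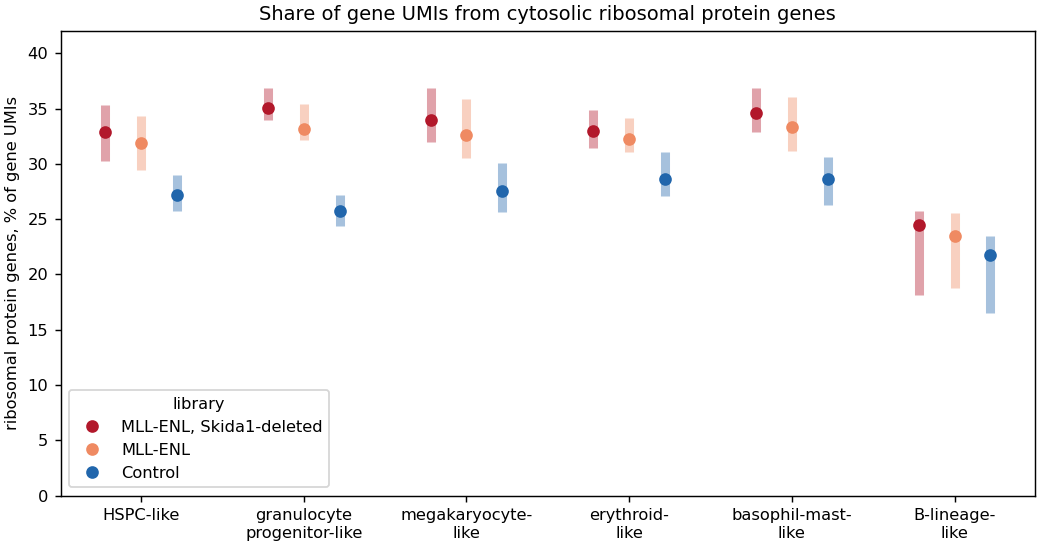
Share of gene UMIs from the 86 ribosomal protein genes (y axis, percent) by marker-defined class (x axis), with 1 point for each library and a pale bar from the lower to the upper quartile of its cells. In the HSPC-like class the points stand at 32.9% (Skida1-deleted), 31.9% (MLL-ENL) and 27.2% (Control).

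The classes were not made of the same clusters in each library. HSPC-like cells came from clusters 5, 7 and 8 in the libraries with the fusion and from clusters 18 and 20 in the Control library. Erythroid-like cells came mainly from clusters 0, 1, 2 and 14 with the fusion and from clusters 10, 15 and 25 in Control. In the MLL-ENL library 2978 of its 6574 erythroid-like cells came from cluster 9, which was of low depth (median 4208.5 UMIs). That cluster held 80 Skida1-deleted and 8 Control cells. Clusters 6, 16, 4 and 12, which held at least 20 cells of each library, gave the same order of shares. The erythroid-like cluster 13, of low depth (median 1843 UMIs), held 286 Skida1-deleted, 107 MLL-ENL and 29 Control cells. Its shares are not given here. The granulocyte cluster 6 had 35.0% (Skida1-deleted), 33.1% (MLL-ENL) and 25.7% (Control), and the basophil-mast cluster 16 had 34.7%, 33.6% and 29.0%. The megakaryocyte clusters 4 and 12 had 32.3%, 30.9% and 27.1%, and 35.2%, 34.2% and 28.8%. The highest shares stood in the unnamed cluster 11, at 37.1% of 807 Skida1-deleted cells and 36.8% of 845 MLL-ENL cells.

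Depth, cell cycle phase and other measures moved with the libraries. Median depth of HSPC-like cells was 9074 UMIs in the Skida1-deleted library, 10315 in the MLL-ENL library and 15013 in the Control library, and 51.1%, 55.3% and 32.6% of them were called G1. Malat1, a nuclear RNA, stood at 9637, 7285 and 4153 CPM in the same cells and order, and the median mitochondrial share at 4.40%, 5.18% and 5.53%. Summed macrophage markers were at 1.72, 3.16 and 7.28 CPM and summed endothelial markers at 284, 311 and 447 CPM, again in the order Skida1-deleted, MLL-ENL, Control. The part of these measures in the shares was not tested beyond the following comparisons within depth and phase. Among HSPC-like cells of 6000 to 10000 UMIs the members' share was 33.4% (Skida1-deleted), 32.0% (MLL-ENL) and 27.5% (Control), and among those of 25000 to 40000 UMIs it was 33.0%, 30.8% and 26.5%. HSPC-like cells called G1 had 33.3%, 32.4% and 28.6%, and those called G2M had 31.9%, 30.8% and 26.2%. Erythroid-like cells behaved differently with depth. At 10000 to 15000 UMIs their shares were 32.9% (Skida1-deleted), 32.3% (MLL-ENL) and 33.0% (Control), so the gap to Control was not present there, while at 25000 to 40000 UMIs they were 32.9%, 32.4% and 28.9%.

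The sum held opposite differences that followed the size of the encoded protein more than the subunit. Rpl genes took 17.9% (Skida1-deleted), 17.4% (MLL-ENL) and 14.8% (Control) of HSPC-like gene UMIs and Rps genes 14.9%, 14.5% and 12.4%, so both subunits were 1.17-fold higher in MLL-ENL than in Control. Members were then put in 3 classes by textbook knowledge of protein size, a grouping made after their values had been seen and given as a description. The 26 members with the smallest proteins took 9.38% of HSPC-like gene UMIs in the Skida1-deleted library, 6.86% in the MLL-ENL library and 3.49% in the Control library. The 30 of middle size took 13.5%, 14.1% and 10.2%, and the 29 largest took 10.0%, 10.9% and 13.5% in the same order of libraries. The small class was 1.97-fold higher in MLL-ENL than in Control and 1.37-fold higher in Skida1-deleted than in MLL-ENL, while the large class stood at 0.813-fold and 0.913-fold. Erythroid-like cells showed the same split, with small members at 9.31%, 7.04% and 3.64% and large members at 10.7%, 11.5% and 14.7% in the Skida1-deleted, MLL-ENL and Control libraries. Granulocyte progenitor-like cells had small members at 10.1%, 7.19% and 3.36% and large members at 10.9%, 11.6% and 13%.

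**Figure D2:**
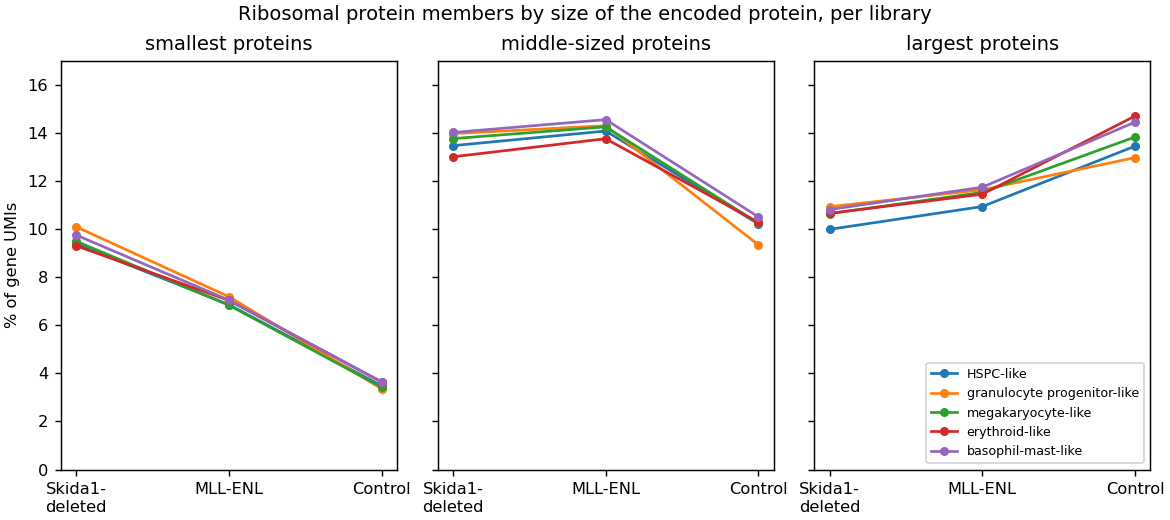
Share of gene UMIs (y axis, percent) taken by members with small, middle-sized and large proteins, in a panel each, with libraries on the x axis and 1 line for each of 5 cell classes. In HSPC-like cells the small members take 9.38% (Skida1-deleted), 6.86% (MLL-ENL) and 3.49% (Control), and the large members 10.0%, 10.9% and 13.5%.

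The comparison of MLL-ENL with Control sets the library with the fusion and Skida1 intact beside the Control library. In HSPC-like cells 84 members were measured (at least 5 CPM in either library and 50 UMIs over both). Of these, 40 differed by 1.5-fold or more, against 20.7% of all 9837 measured genes. On the higher side in MLL-ENL stood 36 members and on the lower side 4, against 6.7% and 14% of genes. The members' median log2 ratio was 0.50, against -0.12 for all genes. Median-of-ratios scaling, whose offset from CPM of -0.10 raises every ratio of this comparison, gave 43 members higher and 2 lower, and 899 genes higher and 943 lower in place of 659 and 1373. By protein size, 24 of 25 small members, 11 of 30 middle-sized members and 1 of 28 large members were past 1.5-fold on the higher side, and all 4 on the lower side were large.

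Among small-subunit proteins, Rps27, which carries a zinc finger, stood at 3570 CPM in the Skida1-deleted library, 2162 in MLL-ENL and 786 in Control HSPC-like cells. The MLL-ENL value was 2.75-fold that of Control (95% interval 2.70 to 2.80) and the Skida1-deleted value 4.54-fold (4.46 to 4.62), the highest ratios of any member above 30 CPM. Its level was graded over the 3 libraries, with Control the lowest.

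Large-subunit proteins showed the same kinds of pattern. Rpl39, a very short basic protein that lines the exit tunnel, had 5764 CPM in the Skida1-deleted library, 3707 in MLL-ENL and 1538 in Control. Its level was thus graded over the 3 libraries. Rpl31, which lies near the exit of the tunnel, had 1718, 1517 and 633 CPM, a log2 ratio of 1.26 for MLL-ENL over Control. The acidic stalk proteins Rplp1 and Rplp2, which recruit elongation factors, parted from their anchor Rplp0. Rplp2 had 4094 (Skida1-deleted), 3463 (MLL-ENL) and 1473 CPM (Control), and Rplp1 had 5450, 5296 and 2920 CPM, whereas Rplp0 had 4114, 4699 and 7754 CPM. The small stalk proteins were higher in both fusion libraries, and Rplp0 was lower in both, at a log2 ratio of -0.72 for MLL-ENL over Control.

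The other large members past 1.5-fold on the lower side were Rpl3, Rps2 and Rpl7l1. Rpl3, a core protein near the peptidyl transferase center, had 3018 CPM in the Skida1-deleted library, 3428 in MLL-ENL and 5380 in Control. Rps2, a protein at the messenger RNA entry, had 5338, 5646 and 8587 CPM in the same order. In both genes the fusion libraries were near each other and below Control, at log2 ratios of -0.65 and -0.60 for MLL-ENL over Control. Rpl7l1, a paralog of Rpl7, is a low member with 68.4, 67.1 and 126 CPM. Rpsa, known also as the laminin receptor precursor, had 5335, 5596 and 7944 CPM, and the X-linked Rps4x had 4054, 4534 and 6321 CPM, both lower in MLL-ENL than in Control by less than 1.5-fold. For Skida1-deleted over Control Rps4x had a log2 ratio of -0.64 and was past that size. The large member on the higher side was Rpl3l, described below.

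**Figure D3:**
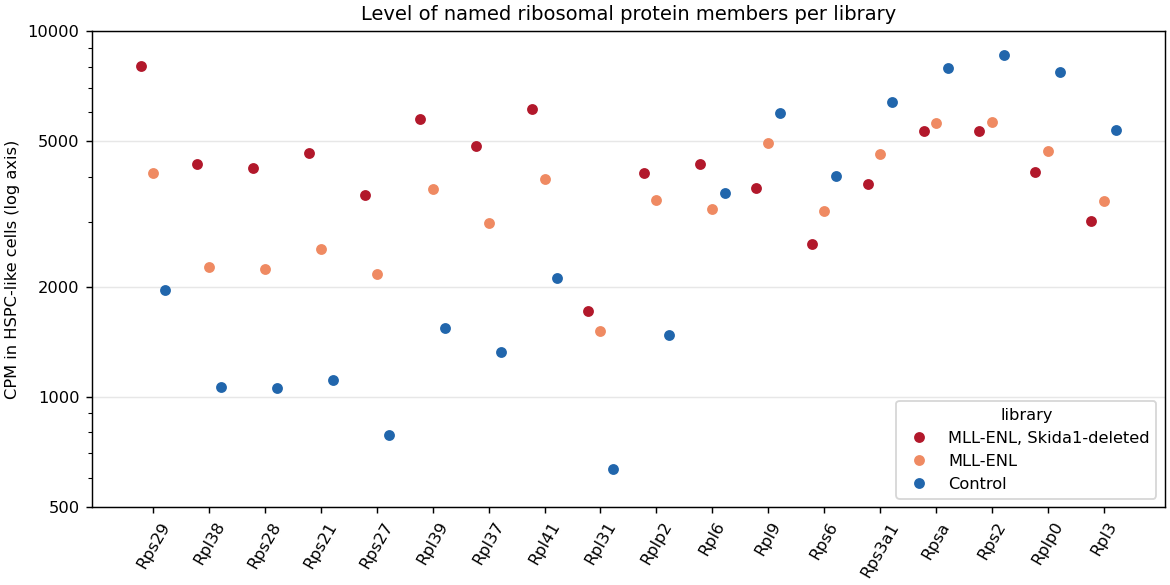
Level of named members in HSPC-like cells (CPM on a log axis) in each library, 1 point per library. Rps27 stands at 3570 CPM (Skida1-deleted), 2162 CPM (MLL-ENL) and 786 CPM (Control), and Rplp0 at 4114, 4699 and 7754 CPM.

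The comparison of Skida1-deleted with MLL-ENL sets libraries with the fusion beside each other, without and with Skida1. It shares the MLL-ENL library with the comparison above. Of 84 members measured in HSPC-like cells, 10 differed by 1.5-fold or more, against 2.17% of 9584 genes. All 10 were higher in Skida1-deleted and 0 were lower, against 1.37% and 0.803% of genes. The members' median log2 ratio was -0.07, against -0.02 for all genes, so the typical member did not stand above the typical gene. These 10 belong to the small class: Rps29, Rpl38, Rps28, Rps21, Rps27, Rpl37a, Rpl37, Rpl39, Rpl41 and Rpl36.

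Rps29, a zinc-binding protein of the small subunit's head (chr12:69157722-69159186 in GRCm38.p6), had 8023 CPM in the Skida1-deleted library, 4097 in MLL-ENL and 1965 in Control HSPC-like cells. Skida1-deleted over MLL-ENL was 1.96-fold (95% interval 1.94 to 1.97), the highest ratio of the members. Over all kept cells it ranked 4 among members in Skida1-deleted, 41 in MLL-ENL and 56 in Control. Rpl38 (chr11:114667818-114672333), which in mice is required for translation of a subset of Hox messages, had 4333, 2271 and 1065 CPM. Rps28 (chr17:33823036-33824562), a small-subunit protein near the messenger RNA exit, had 4222, 2237 and 1058 CPM. Rps21 (chr2:180257379-180258444), a small-subunit protein needed for maturation of its ribosomal RNA in yeast, had 4638, 2537 and 1109 CPM. In each of these 4 the Skida1-deleted level was the highest and the Control level the lowest, at log2 ratios of 0.87 to 0.97 for Skida1-deleted over MLL-ENL.

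Rpl37 and Rpl37a, zinc-binding proteins of the large subunit, had 4854 and 4974 CPM in the Skida1-deleted library, 2991 and 3071 in MLL-ENL, and 1326 and 1392 in Control. Rpl41, the shortest ribosomal protein, had 6135, 3953 and 2109 CPM, and Rpl36 4079, 2714 and 1322 CPM in the Skida1-deleted, MLL-ENL and Control libraries. They followed the same order, at log2 ratios of 0.70, 0.70, 0.63 and 0.59 for Skida1-deleted over MLL-ENL.

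The lowest ratios of this comparison were smaller in size. Rpl9, a large-subunit protein near the sarcin-ricin loop, had 3731 CPM in the Skida1-deleted library, 4950 in MLL-ENL and 5983 in Control, a log2 ratio of -0.41. Rps6, the small-subunit protein phosphorylated by S6 kinase, had 2615, 3212 and 4027 CPM and a log2 ratio of -0.30. Rps3a1 and Rps7 followed at -0.27 and -0.25. Rpl6 (chr5:121204501-121209241), which encodes a large protein, went the other way from its size class. It had 4326 CPM in the Skida1-deleted library, 3261 in MLL-ENL and 3603 in Control, a log2 ratio of 0.41 for Skida1-deleted over MLL-ENL, and the ratio was between 0.41 and 0.52 in the 5 classes compared.

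The comparison of Skida1-deleted with Control, which shares a library with each comparison above, adds both steps. In HSPC-like cells 32 members were at least 1.5-fold higher and 12 at least 1.5-fold lower in Skida1-deleted, against 8.43% and 17.6% of 9835 genes. The members' median log2 ratio was 0.45, against -0.15 for all genes. Rps27, Rps21, Rps29 and Rpl38 had the highest log2 ratios, between 2.02 and 2.18, and Rplp0, Rpl7l1, Rpl3 and Rps3a1 the lowest, between -0.91 and -0.74. In all 5 classes 29 members were higher and 3 (Rpl3, Rplp0 and Rps3a1) lower by 1.5-fold or more, against 5.02% and 4.05% of genes.

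**Figure D4:**
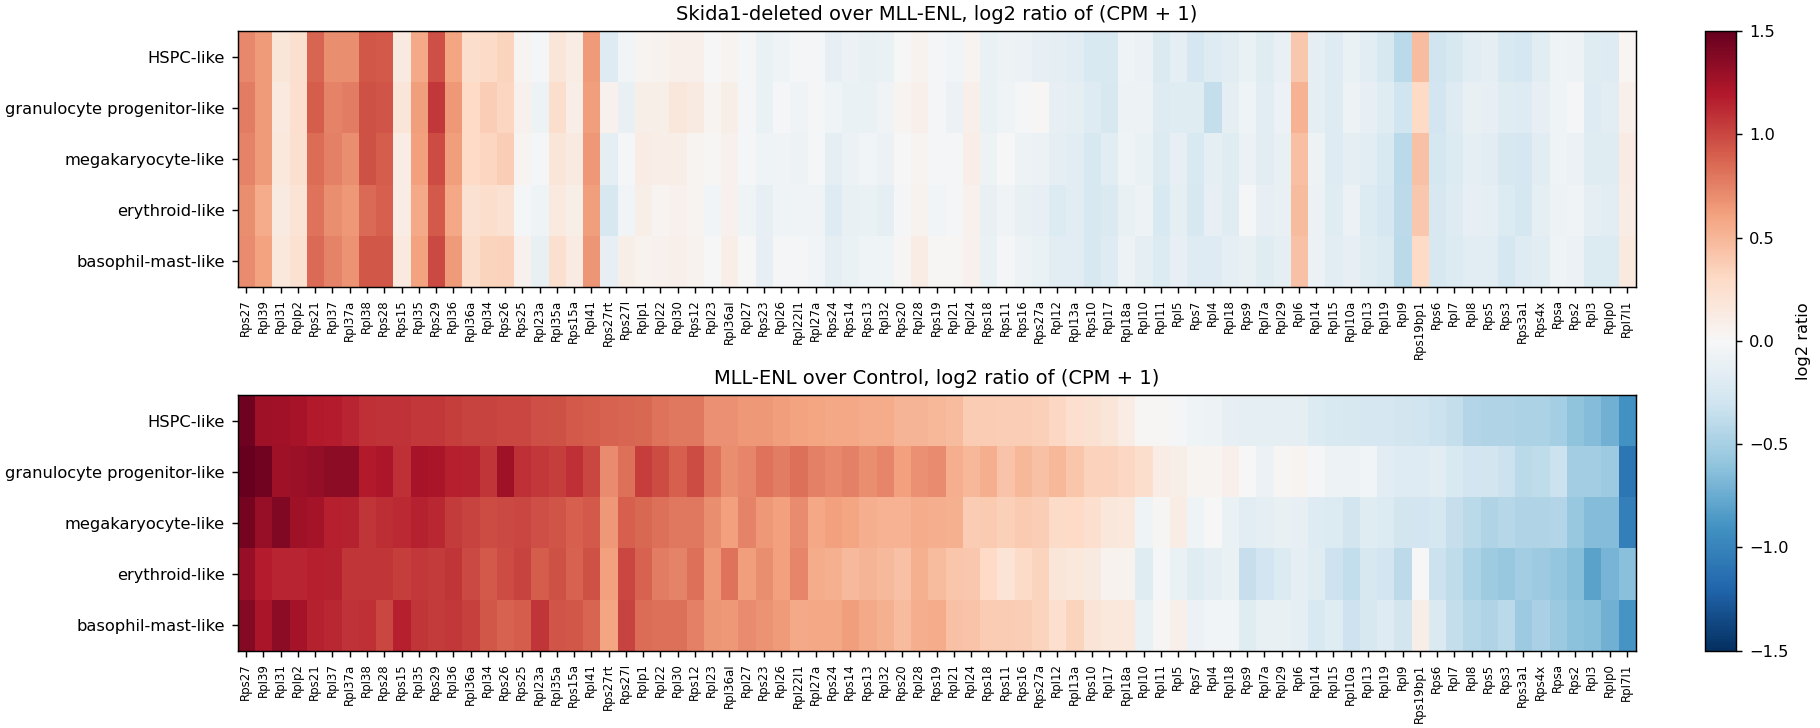
log2 ratio of CPM for members at 30 CPM or more (x axis, ordered by the HSPC-like ratio of MLL-ENL over Control) in each of 5 classes (rows), with Skida1-deleted over MLL-ENL in the upper panel and MLL-ENL over Control in the lower panel. The color of a member changes little down a column, and the members with the highest ratios of Skida1-deleted over MLL-ENL include Rps29 at 0.97 and Rpl38 at 0.93 in HSPC-like cells.

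The pattern of members was nearly the same in each class. Of 83 members at 30 CPM or more in all 5 classes, 74 (89.2%) had 1 sign in every class for MLL-ENL over Control, against 63.0% of 3589 genes. For Skida1-deleted over MLL-ENL 75 members (90.4%) did, against 46.7% of 3242 genes. Most members stood far above 30 CPM, and the genes set beside them were not matched in level. The part of counting error in the signs of those genes was not tested. A member's log2 ratios had a median SD over the 5 classes of 0.08 for MLL-ENL over Control, whereas the SD of the members' class means was 0.59. For Skida1-deleted over MLL-ENL the same values were 0.03 and 0.31. The 5 classes of a library share preparation and sequencing, so they are not replicates. For MLL-ENL over Control 33 members were at least 1.5-fold higher in all 5 classes and 1, Rpl7l1, lower, against 3.65% and 2.01% of genes. For Skida1-deleted over MLL-ENL 8 were higher in all 5 and 0 lower, against 0.864% and 0.247% of genes. These 8 were Rpl37, Rpl37a, Rpl38, Rpl41, Rps21, Rps27, Rps28 and Rps29.

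Counts within other classes were alike. In granulocyte progenitor-like cells 42 of 83 members exceeded 1.5-fold upward and 1 downward in MLL-ENL relative to Control, against 6.38% and 18.4% of genes, and 11 higher and 0 lower in Skida1-deleted than in MLL-ENL, against 2.8% and 5.26%. In erythroid-like cells 34 were higher and 4 lower in MLL-ENL than in Control, against 4.87% and 11% of genes, and 8 higher and 0 lower in Skida1-deleted than in MLL-ENL, against 0.813% and 1.07%. Megakaryocyte-like cells had 36 members higher and 3 lower for MLL-ENL over Control, against 6.43% and 15.4% of genes, and 11 higher and 0 lower for Skida1-deleted over MLL-ENL, against 1.67% and 1.63%. Basophil-mast-like cells had 34 higher and 4 lower for MLL-ENL over Control, against 7.21% and 14.2%, and 11 higher and 0 lower for Skida1-deleted over MLL-ENL, against 2.79% and 3.17%. Rps27 had log2 ratios of 1.31 in erythroid-like and 1.55 in granulocyte progenitor-like cells for MLL-ENL over Control. Rps29 had 0.92 and 1.06 in those classes for Skida1-deleted over MLL-ENL.

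Cell classes were then compared within each library. Of 83 members that reached 30 CPM, only Rps27l was, in erythroid-like against HSPC-like cells, at least 1.5-fold higher in all 3 libraries, and 0 members were lower, against 14.3% and 22% of 5533 genes. Its log2 ratios were 0.84 (Skida1-deleted), 0.83 (MLL-ENL) and 0.71 (Control). Granulocyte progenitor-like, megakaryocyte-like and basophil-mast-like cells had 0 members past 1.5-fold from HSPC-like cells in all 3 libraries in either direction. Of all genes, 3.88% were higher and 9.6% lower in granulocyte progenitor-like cells, 5.45% and 7.97% in megakaryocyte-like cells, and 4.09% and 5.22% in basophil-mast-like cells. Rpl36al had erythroid-like over HSPC-like log2 ratios of 0.62, 0.59 and 0.46 in the Skida1-deleted, MLL-ENL and Control libraries, past 1.5-fold in both fusion libraries and short of it in Control. Rps2, at 0.52, 0.49 and 0.53, was short of it in each. Rpl39 was lower there, at -0.50, -0.42 and -0.33.

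The members with the most UMIs over all kept cells included Rpl13, Rps2, Rpsa, Rps12 and Rplp0. A 3′ assay counts molecules and not bases, but capture differs between messages, so ranks compare a gene with itself over libraries. Rps2 ranked 7 in Skida1-deleted, 3 in MLL-ENL and 1 in Control, Rplp0 ranked 18, 13 and 3, and Rps12 ranked 3, 4 and 27. In HSPC-like cells Rpl13, the most counted member, had 7467 CPM (Skida1-deleted), 8406 (MLL-ENL) and 9976 (Control), while Rps12 had 6892, 6559 and 3801 CPM. Their order over the libraries was opposite.

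Several members come in pairs of near-identical or related genes, which alignment may not fully separate. Rps27l, a paralog of Rps27 and a known p53 target in human cells, made up 12.0% of the Rps27l and Rps27 UMIs in Skida1-deleted HSPC-like cells (95% interval 11.8% to 12.2%), 18.9% in MLL-ENL (18.5% to 19.2%) and 25.8% in Control (25.2% to 26.4%). In erythroid-like cells it made up 22.9%, 33.1% and 38.0%. Rps27l itself had 489, 503 and 273 CPM in HSPC-like cells of these libraries, near-equal levels with the fusion, where Rps27 had 3570, 2162 and 786 CPM. Rpl36al made up 24.5%, 27.5% and 32.3% of its pair with Rpl36a in HSPC-like cells, and Rpl22l1 made up 30.2%, 31.4% and 34.6% of its pair with Rpl22. Rpl7l1 made up 2.69%, 2.25% and 3.28% of its pair with Rpl7, without the graded order of the other pairs. Rps27rt, a retrotransposed copy of Rps27, stood at 76.6, 87.5 and 47.1 CPM.

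**Figure D5:**
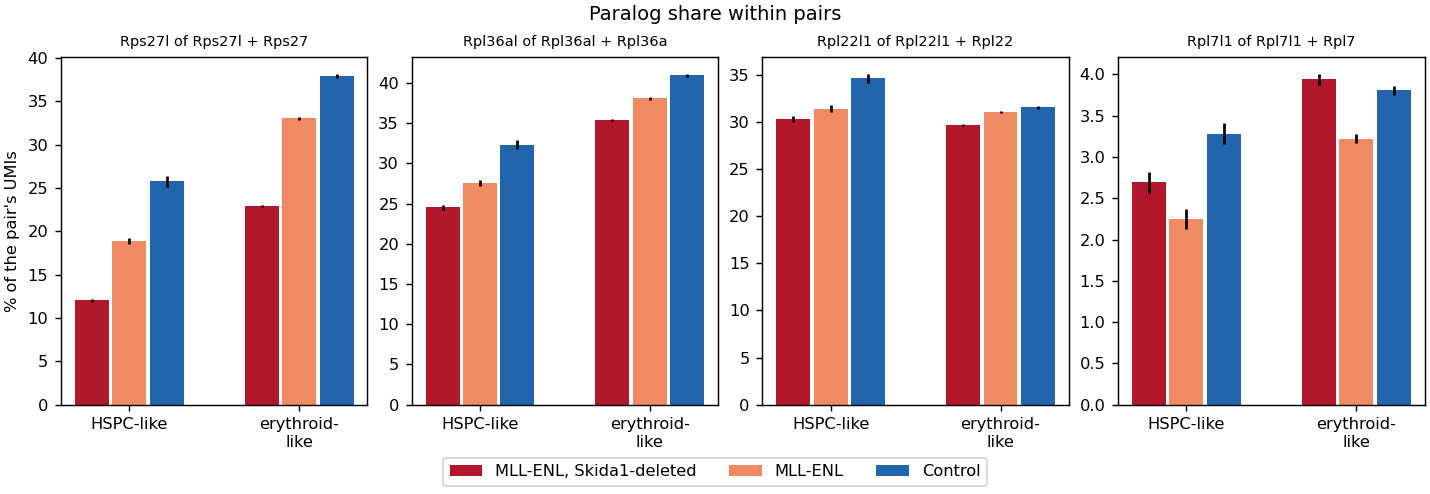
Share of the first gene in 4 paralog pairs (y axis, percent of the pair's UMIs) in HSPC-like and erythroid-like cells (x axis) by library, with exact binomial 95% intervals. Rps27l makes up 12.0% (Skida1-deleted), 18.9% (MLL-ENL) and 25.8% (Control) of its pair in HSPC-like cells.

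The rare paralogs were few in UMIs. Rpl3l, the form of Rpl3 known from heart and skeletal muscle, had 130 UMIs (5.21 CPM) in Skida1-deleted HSPC-like cells, 137 UMIs (6.47 CPM) in MLL-ENL and 22 UMIs (1.17 CPM) in Control. The MLL-ENL level was 5.54-fold that of Control (95% interval 3.51 to 9.13). In that comparison Rpl3l passed the limit of 5 CPM only through the MLL-ENL library, where it was higher. Erythroid-like cells held 6, 19 and 7 UMIs of Rpl3l, out of 158, 187 and 43 over all kept cells. Rpl39l, known from testis, had 48 UMIs in Skida1-deleted, 34 in MLL-ENL and 2 in Control HSPC-like cells, an MLL-ENL over Control ratio of 15.1 (3.88 to 129.9) that rests on 2 Control UMIs. In erythroid-like cells it had 440, 215 and 69 UMIs, or 3.72, 1.68 and 0.568 CPM. Rpl10l had 0 UMIs in every library and was the only member under 50 UMIs over the kept cells of the 3 libraries. Rps4l was not among the rows.

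Of the members whose human genes are known in inherited or acquired anemia or leukemia, 14 were measured in HSPC-like cells. In MLL-ENL over Control 5 were at least 1.5-fold higher and 0 lower, against 6.7% and 14% of all genes, with a median log2 ratio of 0.54. Over all members 36 of 84 were higher, with a median of 0.50, so these 14 are described and not set apart. Among them were Rps26, at 3929 CPM (Skida1-deleted), 3125 (MLL-ENL) and 1557 (Control), and Rpl35a, at 4034, 3560 and 1834 CPM. In Skida1-deleted over MLL-ENL 0 of the 14 were past 1.5-fold, against 2.17% of all genes, and their median was -0.06. Rps19, the gene most often mutated in Diamond-Blackfan anemia, had 4983 CPM (Skida1-deleted), 5043 (MLL-ENL) and 3573 (Control). Rps14, lost in the human 5q deletion syndrome, had 4968, 5301 and 3558 CPM. Rpl5 and Rpl11, which bind MDM2 when ribosome assembly fails, had 2140 and 3889 CPM in Skida1-deleted, 2363 and 4520 in MLL-ENL, and 2413 and 4469 in Control. The 4 X-linked members Rpl39, Rpl10, Rps4x and Rpl36a had median log2 ratios of 0.52 (MLL-ENL over Control) and 0.09 (Skida1-deleted over MLL-ENL). The 80 autosomal members had 0.50 and -0.07. Male cells were found in the Skida1-deleted library alone, so only the second of these comparisons sets libraries of different sex beside each other.

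Genes of the translation machinery outside the symbol rule were set beside the members. Fau, whose product is cut to release the small-subunit protein eS30, had 4716 CPM (Skida1-deleted), 4073 (MLL-ENL) and 2575 (Control) in HSPC-like cells. Rack1, a scaffold on the small subunit, had 2686, 2872 and 3424 CPM. Fau followed the small members and Rack1 the large members. Of 21 translation factors and other TOP messages, 0 were higher and 1 lower past 1.5-fold in MLL-ENL than in Control, against 6.7% and 14% of all genes. Their median log2 ratio was -0.29, beside -0.12 for all genes. In Skida1-deleted over MLL-ENL 0 of them were higher and 1 lower, against 1.37% and 0.803% of all genes, with a median of -0.16. Eef1a1, which delivers aminoacyl-tRNA to the ribosome, had 5027, 5599 and 6467 CPM in the Skida1-deleted, MLL-ENL and Control libraries. In HSPC-like cells 20 ribosome biogenesis genes were measured. Of these 0 were higher and 5 lower in MLL-ENL than in Control (median -0.26), against 6.7% and 14% of all genes. In Skida1-deleted over MLL-ENL 0 were higher and 1 lower (median 0.15), against 1.37% and 0.803% of all genes and a median of -0.02. The gene lower in that comparison was Myc, a transcription factor that drives ribosome biogenesis. Myc had 56.2 CPM (Skida1-deleted), 91.4 (MLL-ENL) and 125.5 (Control) in HSPC-like cells. In erythroid-like cells it had 99.5, 176 and 166 CPM, so MLL-ENL was not below Control there. Over all kept cells 0 of the 20 genes were higher and 0 lower past 1.5-fold in MLL-ENL than in Control (median -0.19). Of all 9034 genes measured there, 399 were higher and 956 lower.

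Of 7 p53 targets measured in HSPC-like cells 0 were past 1.5-fold in MLL-ENL over Control, against 20.7% of all genes. In Skida1-deleted over MLL-ENL 0 were past it as well, against 2.17% of all genes. The medians of the p53 targets were -0.09 and -0.09. Among 78 mitochondrial ribosomal protein genes 3 were higher and 18 lower in MLL-ENL than in Control, against 6.7% and 14% of all genes, with a median of -0.42. In Skida1-deleted over MLL-ENL 0 of them were higher and 1 lower, against 1.37% and 0.803% of all genes. Ribosomal protein pseudogene rows took 0.0168%, 0.0231% and 0.0292% of HSPC-like gene UMIs in the Skida1-deleted, MLL-ENL and Control libraries, so reads assigned to them are few beside those of the members. A list of respiratory chain subunits, also added after the member values were seen, holds many short proteins. Of its 78 measured genes 33 were higher and 2 lower past 1.5-fold in MLL-ENL than in Control, against 6.7% and 14% of all genes, with a median log2 ratio of 0.22. In Skida1-deleted over MLL-ENL 3 were higher and 1 lower, against 1.37% and 0.803% of all genes, with a median of 0.00. The part of message length or capture of short messages in these ratios was not tested, since no message lengths were used here.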

How the data were processed

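Unique molecular identifier counts per gene and cell were used as deposited by the authors; they are raw whole-number counts from Cell Ranger, version 6.1.2 per the file headers and 6.0.1 with build mm10 per the submitters' processing notes. Libraries were made with a 10x 3′ kit with feature barcodes, per the labels' protocols. Cells with at least 1000 UMIs, 500 genes and under 10% mitochondrial UMIs were kept, after predicted doublets (618 Skida1-deleted, 341 MLL-ENL, 383 Control) were removed with Scrublet at 0.8% per 1000 cells. With scanpy 1.11.5 (Python 3.11.15, numpy 2.4.6, scipy 1.17.1), 2000 variable genes, 30 components, 15 neighbours and Leiden resolution 1 gave clusters, which were named from marker lists; the naming rule was changed after the first clusters were seen. Raw counts were summed per library and class. CPM is per 1000000 gene UMIs, and log2 ratios are of CPM + 1, which understates the ratios of low genes. Share intervals are exact binomial and fold intervals exact conditional binomial, at 95%. The count steps were tested on simulated data.

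Members and lists were chosen with earlier results of these data known. Named members were drawn from the 8 most counted members, the 4 highest and 4 lowest ratios per class and comparison (at least 30 CPM in either library and 50 UMIs over both), set paralog pairs, disease genes and X-linked members. Not all members of these groups are named. Others named (Rplp1, Rplp2, Rpsa, Rpl6, Rpl36, Rpl37, Rpl37a, Rpl41, Rps27rt and genes of the sequence examples) were chosen after their values were seen. Protein size classes come from textbook knowledge. RefSeq windows (GRCm38.p6) matched 66 of 86 members. Some genes are not reported here by name or drawn, and remain in the counts.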

Additional observations from a re-analysis of the deposited data

How the results depend on the processing

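No paired analysis was possible because each group has 1 library, and for the same reason no replicate could be left out. The log2 ratio of the members' share was 0.23 in HSPC-like and 0.17 in erythroid-like cells for MLL-ENL over Control, and 0.04 and 0.03 for Skida1-deleted over MLL-ENL. For MLL-ENL over Control, the HSPC-like and erythroid-like ratios were 0.23 and 0.17 without mitochondrial and globin genes, 0.18 and 0.0927 in cells called G1, 0.22 and 0.20 with classes from the highest marker score per cell, 0.22 and 0.15 with each cell thinned to 3000 UMIs, 0.25 and 0.19 at Leiden resolution 0.5, 0.23 and 0.16 without doublet removal, and 0.21 and 0.19 under stricter cell limits, which leave 39 Control HSPC-like cells. For Skida1-deleted over MLL-ENL they were 0.0318 and 0.0286 without mitochondrial and globin genes, 0.0357 and -0.15 in G1 (27 Skida1-deleted and 38 MLL-ENL erythroid-like cells), 0.0297 and 0.0279 by marker score and 0.0387 and 0.0247 with cells thinned. The erythroid-like ratio of that comparison was 0.0281 at resolution 0.5, 0.0379 without doublet removal and 0.0359 under stricter limits. The HSPC-like ratios of that comparison at these settings are not given here. Pooling HSPC-like with granulocyte progenitor-like cells gave 0.27 for MLL-ENL over Control and 0.0454 for Skida1-deleted over MLL-ENL. The causes were not tested. Counts of members past 1.5-fold in HSPC-like cells ran from 37 to 45 and from 9 to 11 for these comparisons. Leaving out clusters of low depth, an alternative chosen after seeing the data, and leaving out barcodes listed in several libraries kept the share ratios within their counting intervals. No comparison has a replicate, erythroid-like shares moved with depth, and counts are few for Rpl3l and Rpl39l.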
